A study of Drosophila melanogaster with 36 samples.

Results

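At 45d, flies with the human SOD1 mutant G85R in both motoneurons and glia (MN+glia) were compared with flies that carried wild-type Drosophila SOD1 (dSOD1) in the same cells. The comparison rests on 6 of the 36 arrays of the study, the 3 labelled G85R and the 3 labelled dSOD1 for this pair of drivers and this age, and on all 18769 fly probe sets of the array. All flies were adult males whose parents carried the motoneuron driver D42-Gal4 together with the glial driver M1B-Gal4, crossed either to UAS-G85R or to UAS-dSOD1, so that the drivers are shared and the responder transgene differs. The remaining 30 arrays hold the same flies at 5d, and flies of both ages with D42-Gal4 (MN) or M1B-Gal4 (glia) alone. Each array carried total RNA from its own pool of 40 whole flies. Expression was therefore read over the whole body and not in the cells that made the transgene. None of the 12 groups of the study lacked a SOD1 transgene, and the UAS-G85R and UAS-dSOD1 stocks can differ elsewhere in the genome, so an effect of G85R, an effect of extra dSOD1 and a difference between the stocks cannot be told apart.

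SOD1 is the cytosolic copper and zinc superoxide dismutase, which turns superoxide into oxygen and hydrogen peroxide. Dominant mutations in the human gene, G85R among them, cause an inherited form of amyotrophic lateral sclerosis (ALS), in which motor neurons degenerate, and work in mice showed that mutant SOD1 in glia shapes the course of the disease. In the Gal4-UAS system, the yeast factor Gal4 is made in the cells set by the driver and switches on whatever stands behind the UAS sites.

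Values are log2 levels made by robust multiarray averaging (RMA), and differences are G85R minus dSOD1 from a limma model fitted over all 36 arrays, with their SE and with p values adjusted over all fly probe sets. Medians of the 6 arrays lay between 6.48 and 6.54. On these arrays the 3' probe set of actin stood 2.80 to 3.25 above the 5' probe set, a measure of RNA integrity that ran from 2.39 to 3.24 on 29 other arrays. The same measure for GAPDH was 1.95 to 2.17 on the 6 arrays, with G85R replicate 3 (2.12) and dSOD1 replicates 2 (2.17) and 3 (2.07) above the range of 1.61 to 2.02 on the 29 others. On a single 5d array, replicate 2 of the G85R flies with both drivers, the actin measure was 5.72 and the GAPDH measure 4.29. This one, called the degraded array below, enters only the comparison with 5d and the shared estimate of the spread. The study's methods name a degraded array among 5d G85R flies of the glial driver, not of both drivers, so whether this array and its 5d group carry the right label is unsure, and values against 5d hold for the groups as labelled. G85R replicate 3 stood apart from its group: 1.52% of its probe sets differed by more than 0.5 from the mean of the other 2 arrays, against 0.149% and 0.405% for the other G85R arrays and 0.192% to 0.458% for the dSOD1 arrays. The neuronal marker elav had levels of 8.59, 8.53 and 7.59 on the G85R arrays, the lowest on replicate 3, and of 8.84, 8.21 and 8.45 on the dSOD1 arrays. The glial marker repo stood at 8.64, 8.63 and 8.40 in G85R flies and at 8.69, 8.66 and 8.76 in dSOD1 flies. Genes of the male reproductive tract were read on every array, with levels of 12.48 to 12.58 in G85R flies and 12.60 to 12.73 in dSOD1 flies for SP, the sex peptide of the accessory gland, while Yp2, a yolk protein of females, gave 4.74 to 4.97 in G85R flies and 4.56 to 5.31 in dSOD1 flies.

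More probe sets were lower than higher in G85R flies, and most differences were small. At an adjusted p of 0.05, 567 probe sets (3.02% of those tested) were higher and 753 (4.01%) were lower, with 3256 at an unadjusted p below 0.05. The median difference was 0.373 among the higher and -0.364 among the lower, and 444 and 610 of them changed less than 1.5-fold. At least 2-fold higher were 37 probe sets (0.197%), and at least 2-fold lower were 45 (0.24%). The arrays of the groups did not overlap for any of these probe sets; over all probe sets, the 3 G85R arrays lay above the 3 dSOD1 arrays for 2047 (10.9%) and below them for 2350 (12.5%). Without G85R replicate 3, 452 probe sets were higher and 479 lower. The degraded array bears on these counts through the shared estimate of the spread alone. Without it 702 were higher and 938 lower, with all of the 567 and 753 among them. The plot of difference against level shows the largest rises and falls in probe sets below the top of the range of mean levels.

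**Figure D1:**
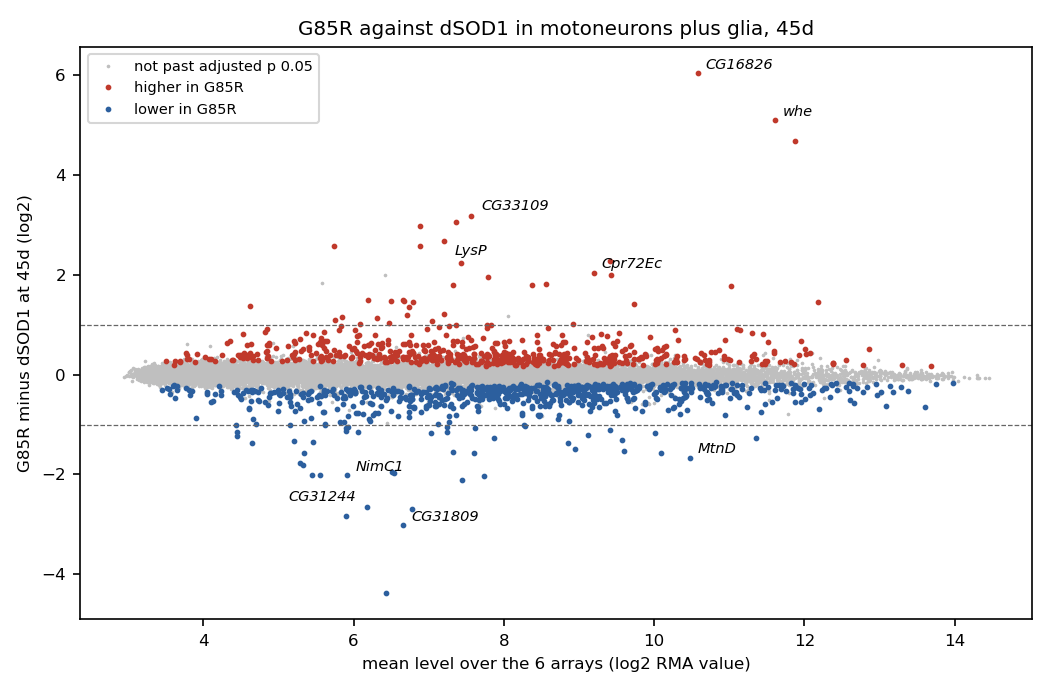
Difference between G85R and dSOD1 flies at 45d (log2, vertical axis) against the mean level over the 6 arrays (log2 RMA value, horizontal axis), 1 point per fly probe set, red for the 567 higher and blue for the 753 lower at an adjusted p of 0.05, dashed lines at 2-fold. Rises of CG16826 and whe exceed 5 log2 units, and called falls reach -4.38.

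The rises of CG16826 and whe, the largest among probe sets with a single gene symbol, were in transcripts that stood near the top of the scale in G85R flies. CG16826, a gene without an assigned function in the tables used, had levels of 13.63, 13.63 and 13.54 in G85R flies, against 7.48, 7.96 and 7.23 in dSOD1 flies, a difference of 6.04 (SE 0.10, adjusted p = 4.3e-29) or 65.9-fold. whe read 14.15, 14.19 and 14.12 in G85R flies, against 9.18, 9.54 and 8.45 in dSOD1 flies, 34.1-fold higher (5.09, SE 0.13, adjusted p = 2.4e-23). For both, the G85R arrays lay within 0.1 of each other and the dSOD1 arrays spread more widely, with no overlap. A probe set that matches both lcs and sesB, and so cannot be given to either gene, read 14.25, 14.25 and 14.14 in G85R flies and 9.63, 9.67 and 9.31 in dSOD1 flies, a difference of 4.68. CG33109 rose by 3.18 (SE 0.10, adjusted p = 1.8e-21), with 9.23, 9.27 and 8.95 in G85R flies against 6.05, 5.99 and 5.89 in dSOD1 flies.

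The 10 largest rises also held genes for a lysozyme, a lipase and an esterase, although the lists of such genes did not all go that way. LysP, a lysozyme of the salivary glands, had levels of 8.56, 8.60 and 8.46 in G85R flies and 5.67, 6.03 and 5.87 in dSOD1 flies, a rise of 2.68 (SE 0.08, adjusted p = 1.8e-21). CG11598, a predicted lipase, read 8.91, 8.96 and 8.82 in G85R flies against 5.77, 5.91 and 5.82 in dSOD1 flies (3.07, SE 0.09, adjusted p = 1.2e-21). alpha-Est2, a carboxylesterase of the alpha-esterase gene cluster, read 7.04, 7.07 and 6.98 in G85R flies against 4.58, 4.53 and 4.26 in dSOD1 flies (2.58, SE 0.08, adjusted p = 2.6e-21). In each of these the lowest G85R array stood at least 2 log2 units above the highest dSOD1 array. Of 3 lysozymes 1 was higher and 0 lower, with a lowest difference of -0.972 that did not pass the threshold. Of 25 lipases 6 were higher and 1 lower, with 3 higher without dSOD1 replicate 1; of 26 digestive serine proteases 2 were higher and 5 lower (2 to 3 lower with any of the 6 arrays left out), and of the 8 alpha-esterase cluster genes 1 was higher and 1 lower (0 lower without G85R replicate 2 or 3 or dSOD1 replicate 1 or 3), beside 4.07% higher and 5.18% lower over all genes. The other genes of the 10 largest rises were CG7900 (2.57), CG13947 (2.28), CG33296 (2.23) and Cpr72Ec (2.04), a cuticular protein, with adjusted p values of at most 8.2e-09. A probe set with no gene symbol, which the study's gene list names CG12256, rose by 2.98. Smaller rises included se (1.47), the sepia enzyme that makes the precursor of the red eye pigments and belongs to the omega class of glutathione transferases, and tum (1.47), the RacGAP tumbleweed of cell division, both without overlap between the groups.

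**Figure D2:**
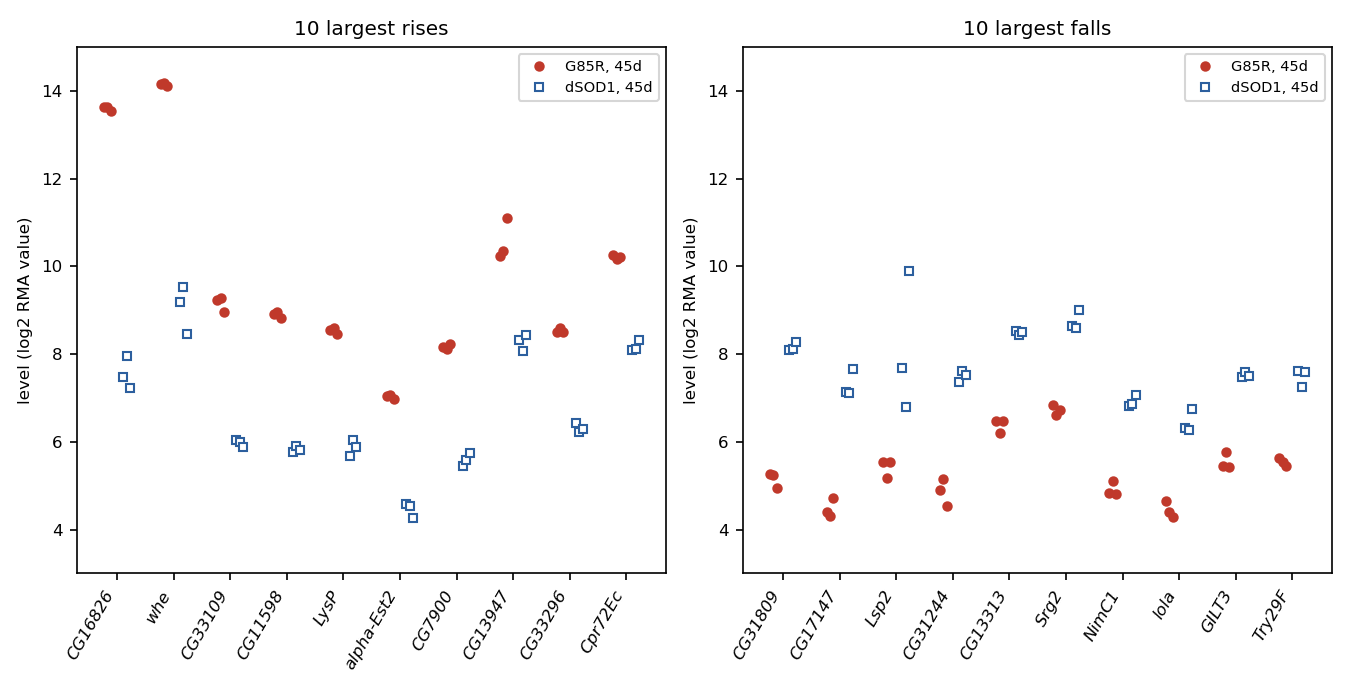
Levels (log2 RMA value) on each of the 3 G85R arrays (red circles) and 3 dSOD1 arrays (blue squares) at 45d, for the 10 genes with the largest rises and the 10 with the largest falls among probe sets with 1 gene symbol. The groups do not overlap for any of the 20 genes, and Lsp2 has the widest spread, 6.79 to 9.88 among dSOD1 arrays.

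CG31809 had the largest fall among probe sets with 1 gene symbol. It read 5.26, 5.25 and 4.94 in G85R flies and 8.09, 8.12 and 8.29 in dSOD1 flies, a difference of -3.02 (SE 0.09, adjusted p = 1.8e-21) or 8.09-fold. A probe set without a symbol that the study's list names CR33319 fell by 4.38, with levels of 3.97, 4.35 and 4.40 in G85R flies against 8.67, 8.66 and 8.52 in dSOD1 flies. CG17147 (-2.83), CG31244 (-2.65), CG13313 (-2.11) and Srg2 (-2.02) followed, with adjusted p values of at most 1.4e-06. Each of these averaged at least 2 log2 units less in G85R flies than in dSOD1 flies, and their groups did not overlap.

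Among the falls with a known role, NimC1, a receptor with which blood cells take up bacteria, read 4.84, 5.10 and 4.80 in G85R flies and 6.82, 6.87 and 7.07 in dSOD1 flies (-2.01, SE 0.12, adjusted p = 1.2e-13). The hemocyte gene Hml, which marks the same class of blood cell, read 9.43, 9.45 and 9.27 in G85R flies and 9.30, 9.31 and 9.23 in dSOD1 flies. Thus the NimC1 groups were apart while those of Hml overlapped (adjusted p = 0.60). In RNA from whole flies, fewer cells of a type and less RNA per cell cannot be told apart. Falls of GILT3 (-1.98), a gene of the lysosomal thiol reductase family, and of Try29F (-1.95), a trypsin, were of like size, with adjusted p values of at most 1.5e-07.

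Further falls were of single genes with a known role and of metallothioneins. SCAP, the escort protein that lets SREBP reach its cleavage site, read 6.98, 6.80 and 6.66 in G85R flies and 8.38, 8.34 and 8.43 in dSOD1 flies (-1.57, SE 0.09, adjusted p = 9.1e-14), and was the only called member among 21 genes of fatty acid synthesis and SREBP. vir-1, a marker of the JAK/STAT response to viruses, read 10.66, 10.83 and 10.66 in G85R flies and 12.00, 11.96 and 11.99 in dSOD1 flies (-1.27, SE 0.07, adjusted p = 3.8e-14), the only call among 10 Turandot and JAK/STAT genes. The metallothionein MtnD read 9.72, 9.71 and 9.49 in G85R flies and 11.45, 10.67 and 11.79 in dSOD1 flies (-1.66, SE 0.24, adjusted p = 1.3e-05). Metallothioneins bind copper, zinc and cadmium, and 3 of 9 genes of metallothioneins and copper transport were lower and 0 higher, with 2 lower without any one of the 6 arrays except dSOD1 replicate 2. MtnB fell by 1.58 (SE 0.33, adjusted p = 0.0015), with 9.40, 9.30 and 9.21 in G85R flies against 11.11, 9.88 and 11.65 in dSOD1 flies, and for both genes dSOD1 replicate 2 was the lowest of its group. CG46339, which the study calls slamdance after the seizure-prone mutant, fell by 1.18 with 9.37 to 9.49 in G85R flies against 10.56 to 10.66 in dSOD1 flies. Sema1a, a transmembrane semaphorin that guides axons, fell by 1.0 (SE 0.17, adjusted p = 0.0001) at levels of 4.85, 4.95 and 4.14 in G85R flies and 5.71, 5.77 and 5.47 in dSOD1 flies.

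The storage protein Lsp2 and the yolk protein Yp1, which the fat body secretes, also fell, but these calls rest on single arrays. Lsp2 read 5.54, 5.18 and 5.54 in G85R flies and 7.69, 6.79 and 9.88 in dSOD1 flies (-2.70, SE 0.64, adjusted p = 0.0059). Without dSOD1 replicate 3 its difference was -1.82, with an adjusted p of 0.103. Yp1 read 5.41, 5.34 and 5.70 in G85R flies and 6.50, 7.37 and 6.04 in dSOD1 flies (-1.16, SE 0.30, adjusted p = 0.014), and the difference was -0.79 (adjusted p = 0.16) without dSOD1 replicate 2 and -1.08 (adjusted p = 0.0621) without G85R replicate 2.

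Probe sets of one gene did not always move together. Of 15 probe sets for lola, a BTB zinc finger gene with many splice forms that acts in axon growth, 1 fell by 2.0 (SE 0.12, adjusted p = 1.9e-13), with 4.64, 4.40 and 4.28 in G85R flies against 6.32, 6.27 and 6.74 in dSOD1 flies. Another lola probe set rose by 0.40 (adjusted p = 0.017), at 7.54 to 7.73 in G85R flies and 7.15 to 7.36 in dSOD1 flies, a call lost without G85R replicate 1 or 2 or dSOD1 replicate 3 (adjusted p 0.0717 to 0.109). For Prosap, the fly homologue of the postsynaptic Shank scaffolds, 1 probe set fell by 1.27 (SE 0.10, adjusted p = 6.5e-11) and another rose by 0.17 (adjusted p = 0.029), the rise being lost without G85R replicate 2 or 3 or dSOD1 replicate 1 or 3 (adjusted p 0.0734 to 0.127). Pairs of genes past 2-fold that lie close together in the order of genes on the chromosome were singled out after their values were seen. MtnB and MtnD have 3 genes between them and both fell, whereas CG11598 rose and Dtg (-1.56) fell with 4 genes between them, and Cda9 rose (1.5) and Spn53F fell (-1.05) with 2 between them.

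The difference at 45d was then set against that of 5d flies with the same drivers, whose arrays are separate. The difference at 45d was not the same as that at 5d for 724 probe sets (3.86%), more positive for 328 and more negative for 396. Of the 37 probe sets at least 2-fold higher at 45d, 26 were also called higher at 5d, 14 of them by at least 2-fold, beside 6.05% of all probe sets higher at 5d and 7.82% lower. For 20 of the 37 the difference was larger at 45d than at 5d, and for 2 it was smaller; since the probe sets were picked by the 45d difference itself, larger differences at 45d are favoured, and these counts are a description. Of the 45 at least 2-fold lower, 31 were called lower at 5d, 24 of them by at least 2-fold, with 14 larger and 2 smaller differences at 45d. The counts and shares of calls at 5d given here include the degraded array and were not repeated without it. Without the degraded array, 19 of the 20 and 10 of the 14 stayed past the threshold, while the count over all probe sets was 274. That count was 361 without dSOD1 replicate 1, 421 and 468 without G85R replicates 2 and 3 and 417 without dSOD1 replicate 3 of the 45d flies, and 388 and 459 without dSOD1 replicates 3 and 2 of the 5d flies; it was 1931 and 1083 without the 5d G85R replicates 1 and 3.

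Among the rises that were larger at 45d, some genes with the largest changes stood at nearly the same level in both groups at 5d and far lower in dSOD1 flies at 45d. CG16826 averaged 13.49 ± 0.081 in G85R flies and 13.50 ± 0.019 in dSOD1 flies at 5d (SD, n = 3), and 13.60 ± 0.052 in G85R flies and 7.56 ± 0.37 in dSOD1 flies at 45d. The change of the difference was 6.05 (SE 0.13, adjusted p = 1.1e-24), and 6.01 without the degraded array. whe averaged 14.15 in G85R flies and 14.13 in dSOD1 flies at 5d, and 14.15 in G85R flies and 9.06 in dSOD1 flies at 45d, a change of 5.08 (SE 0.18), the same without the degraded array. These levels lie close to the top of the scale, where the highest probe set averaged 14.45 over the 6 arrays of 45d, and whether the near-equal values there were held by the limit of the signal was not tested. The probe set of lcs and sesB behaved in the same way, at 14.13 in G85R flies and 14.08 in dSOD1 flies at 5d and at 14.21 in G85R flies and 9.54 in dSOD1 flies at 45d. For CG33109 the 5d means were 8.65 in G85R flies and 8.73 in dSOD1 flies, and the 45d means 9.15 in G85R flies and 5.98 in dSOD1 flies, a change of 3.25 and of 3.15 without the degraded array. LysP already differed at 5d, with 8.10 in G85R flies and 7.41 in dSOD1 flies, and more at 45d, with 8.54 in G85R flies and 5.86 in dSOD1 flies (a change of 1.98, and of 1.99 without the degraded array). Of the 20 probe sets whose rise was larger at 45d, 12 were called higher at 45d than at 5d in G85R flies and 3 lower, while in dSOD1 flies 3 were called higher and 15 lower. Calls between the ages were common over all probe sets, with 16.5% higher and 15.2% lower in G85R flies and 20.6% higher and 17.6% lower in dSOD1 flies. Counts and shares of calls between the ages in G85R flies include the degraded array.

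Other rises had an age course of their own. The probe set named CG12256 in the study's list averaged 6.15 in G85R flies and 5.65 in dSOD1 flies at 5d, and 8.37 in G85R flies and 5.39 in dSOD1 flies at 45d, so that here the G85R level was the higher at the later age. CG11598 (9.18 in G85R flies and 5.83 in dSOD1 flies at 5d) and alpha-Est2 (7.21 in G85R flies and 4.50 in dSOD1 flies) were already apart in young flies, and their change with age did not pass the threshold (-0.28 with adjusted p = 0.22 and -0.13 with adjusted p = 0.57). se averaged 7.02 in G85R flies and 6.86 in dSOD1 flies at 5d, and 7.41 in G85R flies and 5.94 in dSOD1 flies at 45d, a change of 1.31 (SE 0.15, adjusted p = 7.9e-07) and of 1.40 without the degraded array.

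Of the 14 probe sets whose fall was larger at 45d, 5 were called higher at 45d than at 5d in G85R flies and 1 lower, while in dSOD1 flies 13 were called higher and 0 lower. vir-1 averaged 9.87 in G85R flies and 9.56 in dSOD1 flies at 5d, and 10.72 in G85R flies and 11.98 in dSOD1 flies at 45d, a change of -1.57 (SE 0.10, adjusted p = 3.3e-12), the same without the degraded array. The means of MtnB changed their order: it averaged 8.08 in G85R flies and 6.99 in dSOD1 flies at 5d, and 9.30 in G85R flies and 10.88 in dSOD1 flies at 45d. The change was -2.67 (SE 0.46, adjusted p = 0.00081), and -2.50 without the degraded array. Of the 9 genes of metallothioneins and copper transport, 1 was called higher at 5d, and 0 without the degraded array. CG46339 averaged 9.45 in G85R flies and 9.49 in dSOD1 flies at 5d, and 9.42 in G85R flies and 10.60 in dSOD1 flies at 45d. By contrast NimC1, lola and SCAP were apart at 5d already, NimC1 at 5.17 in G85R flies and 6.82 in dSOD1 flies, the lola probe set at 4.40 in G85R flies and 6.15 in dSOD1 flies, and SCAP at 6.44 in G85R flies and 8.16 in dSOD1 flies. Over all probe sets, the differences at 45d and 5d had a correlation of 0.40 (Pearson's r, n = 18769 probe sets of the same arrays), given as a description and with the degraded array included.

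**Figure D3:**
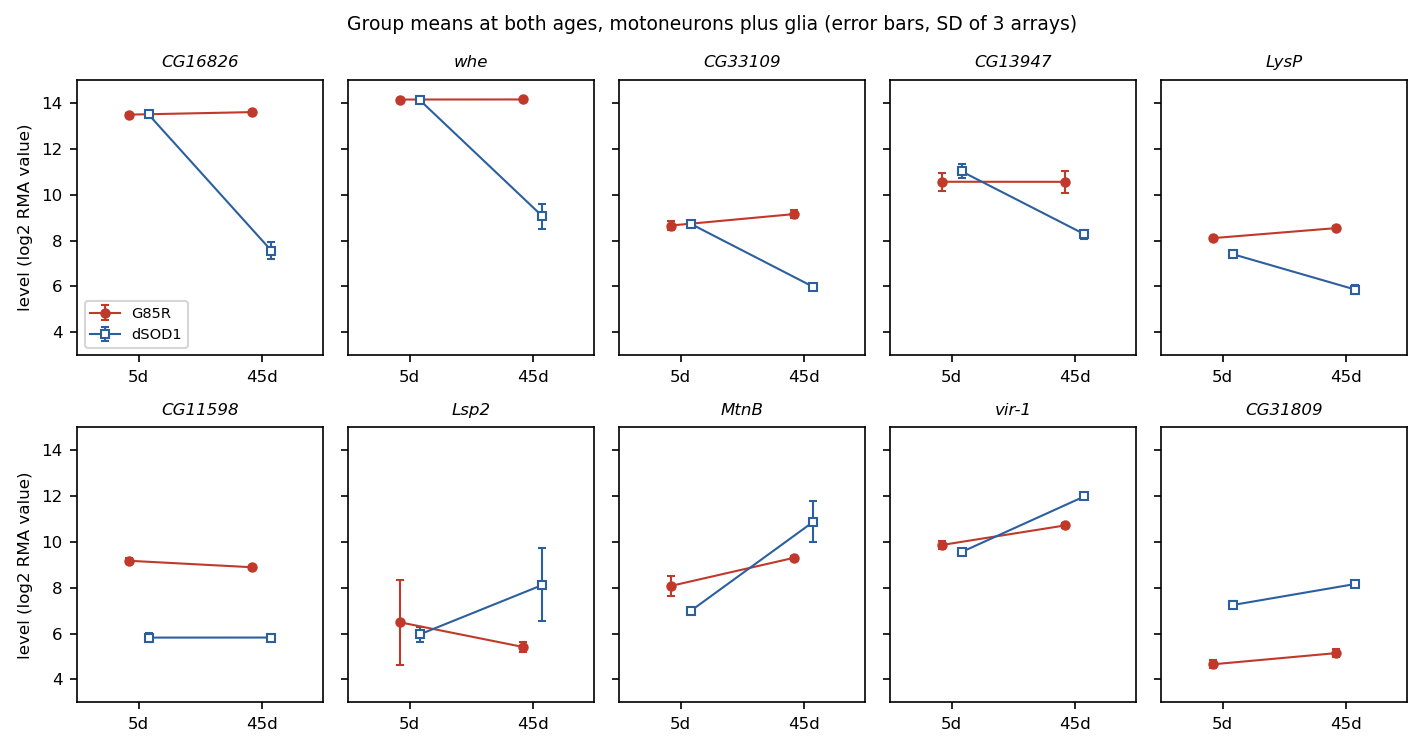
Mean levels (log2 RMA value, vertical axis) of G85R flies (red circles) and dSOD1 flies (blue squares) at 5d and 45d for 10 genes, with error bars for the SD of 3 arrays. CG16826, whe and CG33109 start at nearly the same level and part by 45d, CG11598 and CG31809 are apart at both ages, and the MtnB and vir-1 lines cross.

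Gene groups were read through 49 lists, with 1 probe set for each of 11982 genes, of which 488 (4.07%) were higher and 621 (5.18%) lower in G85R flies, with a median of -0.005. Of 1105 distinct members 86 (7.78%) were higher and 91 (8.24%) lower, list medians ran from -0.365 to 0.225, and 20 medians lay within 0.05 of 0. Counts per list are set beside those 2 percentages. The lists and the genes named were chosen with results of these data known, so a count is a description of its list.

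Among nervous system genes, those that mark neurons in general held 1 call and those of glia split. Of 21 neuron markers 1 was higher (Ddc, 0.24, which makes dopamine and serotonin) and 0 lower, with a median of 0.000; the Ddc call was lost without either of G85R replicates 2 and 3 or dSOD1 replicates 1 and 2 (adjusted p 0.0568 to 0.0955). The glia list had 4 of 22 higher and 3 lower. wrapper, an immunoglobulin protein with which midline glia enwrap axons, read 6.79, 6.67 and 6.32 in G85R flies and 5.50, 5.51 and 5.73 in dSOD1 flies (1.01, SE 0.11, adjusted p = 1.1e-07). e, the enzyme ebony with which glia inactivate histamine and dopamine, read 7.81, 7.96 and 7.92 in G85R flies and 7.19, 7.21 and 7.03 in dSOD1 flies (0.76, adjusted p = 6.1e-09). The lower members were Gli (-0.55), gliotactin of septate junctions, moody (-0.37), a receptor of the glia of the blood-brain barrier, and loco (-0.29), a regulator of G protein signalling. moody read 9.83, 9.82 and 9.85 in G85R flies and 10.21, 10.22 and 10.16 in dSOD1 flies (SE 0.07, adjusted p = 0.00026). Gli and moody also belong to the 22 septate junction genes, the barrier proteins between epithelial and glial cells, of which 0 were higher and 6 lower (27.3%), with a median of -0.165. The count of 6 was 4 to 5 with any of the 6 arrays left out (4 without any one G85R array or dSOD1 replicate 3), and 3 in a fit of only the arrays compared. The others were Lac (-0.30), Tsf2 (-0.22), sinu (-0.19) and Cont (-0.18). This list was above its 5d level in old flies of both kinds, with a median change of 0.311 in G85R flies and 0.485 in dSOD1 flies, and its count at 5d was 1 higher and 0 lower. The difference was more negative at 45d than at 5d for 5 of its genes, and for 4 without the degraded array.

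Peptide hormones moved mostly one way. Of 36 neuropeptide genes 9 (25%) were higher and 1 lower, with a median of 0.091, against counts of 4 and 2 at 5d, or 4 and 4 without the degraded array. Ptth, the brain hormone that drives the ecdysone gland in larvae, read 7.00, 6.57 and 6.59 in G85R flies and 6.22, 6.34 and 6.20 in dSOD1 flies (0.47, SE 0.09, adjusted p = 0.00029). FMRFa, which acts on muscle, rose by 0.39 and Akh, the adipokinetic hormone that mobilises fat and sugar, by 0.30. All 9 rises were below 1.5-fold, and the count was 5 without G85R replicate 2 or without G85R replicate 3. Genes of light detection had 4 of 19 higher and 0 lower, with a median of 0.109: ninaB (0.93), the oxygenase that makes retinal from carotenoids, ninaD (0.58), the receptor for carotenoid uptake, the light-gated channel trpl (0.75) and the opsin Rh7 (0.34, with 0.01 for its other probe set). ninaB read 8.20 to 8.27 in G85R flies and 7.21 to 7.37 in dSOD1 flies, while trp, the main channel of the photoreceptor, read 9.53 to 9.61 in G85R flies and 9.56 to 9.58 in dSOD1 flies.

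Of 17 hemocyte genes 3 were higher and 1 lower. PPO1, the prophenoloxidase that crystal cells make for melanization, read 8.83, 8.87 and 8.78 in G85R flies and 8.03, 7.97 and 8.12 in dSOD1 flies (0.78, SE 0.10, adjusted p = 1.5e-06). PPO2 rose by 0.66 and lz, the Runx factor that sets crystal cell fate, by 0.44. NimC1 was the lower one. The rise of PPO1 was larger at 45d than at 5d by 0.95 (SE 0.14, adjusted p = 0.00012), and by 1.12 without the degraded array. Of the humoral immune system, 0 of 14 antimicrobial peptide genes and 0 of 14 peptidoglycan recognition and Imd genes were called by limma. At an unadjusted p below 0.05, 1 and 2 of them were lower. With any of the 6 arrays left out, or in the alternative fits that drop no single array, at most 1 peptide gene and no Imd gene was called. The fit without the degraded array was not counted there. At 5d 6 of the 14 Imd genes had been higher in G85R flies, and for 6 the difference was more negative at 45d; without the degraded array these counts were 3 and 1. The Toll pathway had 3 of 13 genes lower and 0 higher, the kinase pll by the most (-0.46), and 1 lower without G85R replicate 1 or 2 or dSOD1 replicate 1; 5 of its genes were more negative at 45d than at 5d, and 0 without the degraded array. Of the drosomycin-like genes, small antifungal peptides, Drsl4 (0.90) and Drsl5 (0.44) were higher.

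Among metabolic enzymes, alkaline phosphatases and a list of pentose phosphate and NADPH-forming enzymes were called in a single direction each. Of 13 alkaline phosphatases 6 (46.2%) were higher and 0 lower, with a median of 0.225. Alp2 read 11.57, 11.54 and 11.66 in G85R flies and 10.63, 10.69 and 10.77 in dSOD1 flies (0.89, SE 0.11, adjusted p = 3.9e-07), and 6 were higher at 5d, or 4 without the degraded array. The count of 6 at 45d was 2 without G85R replicate 3 or dSOD1 replicate 2 and 3 without dSOD1 replicate 1 or 3. Of 7 pentose phosphate or NADPH-forming enzymes 3 were lower and 0 higher, a count that held with any of the 6 arrays left out. The lower ones were Men (-0.41), the malic enzyme, Rpi (-0.39), ribose-5-phosphate isomerase, and Idh (-0.32), the NADP isocitrate dehydrogenase. Men read 11.93, 11.87 and 11.80 in G85R flies and 12.21, 12.15 and 12.45 in dSOD1 flies (SE 0.08, adjusted p = 0.00056).

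Detoxifying enzymes moved both ways. Of 83 cytochrome P450 genes 11 were higher and 11 lower, from Cyp4ac3 (0.67) to Cyp4p2 (-0.83), and the lower count was 6 without G85R replicate 3. Among 35 UDP-glucuronosyltransferases 7 were higher and 3 lower, with Ugt37C2 (0.86) and Ugt36E1 (-1.16, SE 0.09, adjusted p = 2e-11) at the ends. Ugt36E1 read 6.42, 6.62 and 6.31 in G85R flies against 7.67, 7.54 and 7.62 in dSOD1 flies. Of 35 glutathione transferases 2 were higher and 5 lower, GstE10 by the most (-0.64), and the lower count was 3 without G85R replicate 3. The omega class gene se, named above among the rises, is not on that list. Among 22 antioxidant enzymes Prx6c, a peroxiredoxin, rose by 0.81 (SE 0.11, adjusted p = 2.6e-06) and the extracellular dismutase gene Sod3 by 0.29 (SE 0.05, adjusted p = 0.00024; -0.01 for its other probe set), while Gs1, a glutamine synthetase counted in this list, was the only lower one (-0.31, lost without G85R replicate 3 or dSOD1 replicate 1 or 3 at adjusted p of 0.0508 to 0.121).

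**Figure D4:**
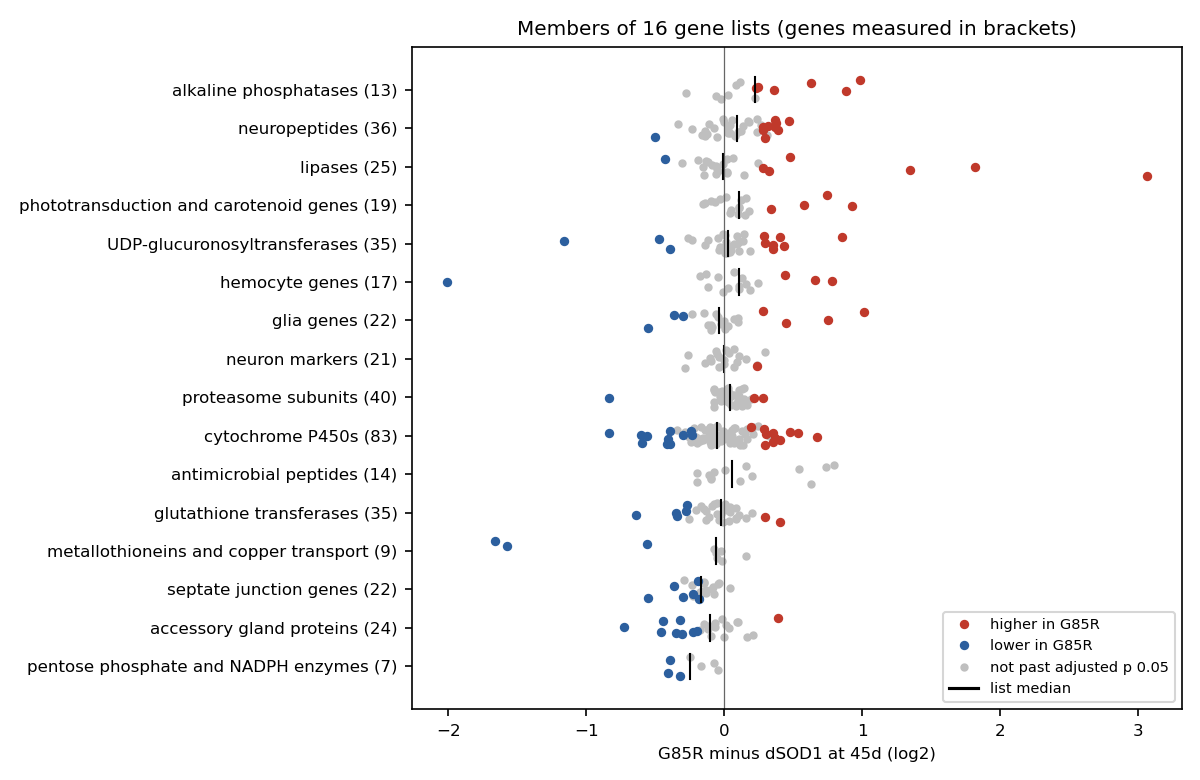
Difference between G85R and dSOD1 flies at 45d (log2, horizontal axis) for the members of 16 gene lists, 1 point per gene, red for higher and blue for lower at an adjusted p of 0.05, grey for the rest, with a black bar at the list median. The septate junction list and the list of pentose phosphate and NADPH enzymes have called members on the lower side only, and alkaline phosphatases on the higher side only.

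Secreted proteins of the male accessory gland, which pass to the female in the seminal fluid, were lower for 8 of 24 genes (33.3%) and higher for 1, with a median of -0.099, against 7 lower and 0 higher at 5d, or 4 and 0 without the degraded array. Acp76A, a serpin of the gland, read 8.66, 8.86 and 8.81 in G85R flies and 9.43, 9.60 and 9.49 in dSOD1 flies (-0.73, SE 0.11, adjusted p = 1.1e-05). The count of 8 was 6 to 7 with any of the 6 arrays left out. Testis genes had 1 of 29 higher and 1 lower, and of 40 proteasome genes the testis form Prosbeta5R2 was the only lower one (-0.84, SE 0.11, adjusted p = 2.3e-06). Higher were 2 of the 40, Prosbeta5R1 (0.28) and Prosbeta5 (0.22). Both calls were lost in a limma fit of only the arrays compared (adjusted p = 0.0674 and 0.0964).

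Groups that are often examined in models of ALS are set beside 4.07% higher and 5.18% lower over all genes. Against those shares, 0 calls in lists of 13, 11 and 3 genes say little. Of 13 genes of glutamate signalling at the neuromuscular junction, 11 large heat shock proteins and chaperones and 3 small heat shock proteins, limma called 0. At an unadjusted p below 0.05, 0, 1 and 1 were higher and 2, 1 and 0 lower, beside 3256 of 18769 over all probe sets. A probe set shared by the small heat shock gene Hsp22 and CG4456, and so outside the list, was 0.22 higher (adjusted p = 0.0448), a call lost without any of the 6 arrays except dSOD1 replicate 3 (adjusted p 0.0605 to 0.263). For another probe set of the same pair of genes, the 45d difference minus the 5d difference was -0.91. That call was lost in a limma fit of only the arrays compared (adjusted p = 0.0526). Of 20 autophagy genes and fly counterparts of ALS genes, 0 were higher and 2 lower, Atg4a (-0.35) and Atg13 (-0.30), the Atg13 call being lost without G85R replicate 2 or 3 or dSOD1 replicate 3 (adjusted p 0.0697 to 0.354). The subunits of the respiratory chain and ATP synthase had 2 of 75 higher and 3 lower, with a median of 0.024, and mitochondrial ribosomal proteins 5 of 69 higher and 1 lower, of which 2 higher were left without dSOD1 replicate 3, 1 higher in a fit of only the arrays compared, and 0 lower without any one of the 6 arrays.

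Finally, the difference under both drivers was set against that under each driver alone, each with dSOD1 flies of its own. It differed from the MN difference for 255 probe sets (1.36%) and from the glia difference for 85 (0.453%), counts whose own difference was not tested. Of the 37 probe sets at least 2-fold higher under both drivers, 29 were called higher under the MN driver (19 by at least 2-fold; 5.18% of all probe sets were higher and 4.84% lower) and 35 under the glia driver (30 by at least 2-fold; 4.89% higher and 5.09% lower). For 18 of the 37 the rise was larger than in MN flies and for 0 smaller, and against glia flies 8 were larger and 1 smaller, counts that the choice by the MN+glia difference favours. Over all probe sets, 102 differences were more positive and 153 more negative than in MN flies, and 39 and 46 than in glia flies. Of the 45 at least 2-fold lower, 31 were called lower in MN flies and 37 in glia flies. Correlations of the differences over the 18769 probe sets were 0.59 with MN and 0.72 with glia, as a description. At 45d, under the MN and the glia driver, septate junction genes were lower for 2 and 8 of 22. Pentose phosphate or NADPH-forming enzymes were lower for 5 and 6 of 7 and accessory gland genes for 14 and 10 of 24, all with 0 higher. Alkaline phosphatases were higher for 6 and 6 of 13 with 0 lower. Neuropeptide genes had 1 and 4 of 36 higher and 2 and 2 lower, and light detection genes 1 and 3 of 19 higher and 3 and 0 lower. Over all genes, 6.99% and 6.75% were higher and 6.42% and 6.76% lower.

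For several rises the difference was smaller with the MN driver, whose dSOD1 flies had the higher levels. CG11598 averaged 8.90 in G85R flies and 5.83 in dSOD1 flies with both drivers, 9.61 in G85R flies and 8.98 in dSOD1 flies with the MN driver, and 8.85 in G85R flies and 5.77 in dSOD1 flies with the glia driver. Its difference exceeded that of MN by 2.43 (SE 0.13, adjusted p = 2e-14) and stood at -0.02 against that of glia. alpha-Est2 had the same pattern, 7.03 in G85R flies and 4.46 in dSOD1 flies with both drivers, 8.04 in G85R flies and 7.66 in dSOD1 flies with MN, and 7.12 in G85R flies and 4.39 in dSOD1 flies with glia, an excess of 2.20 over MN. wrapper averaged 6.59 in G85R flies and 5.58 in dSOD1 flies with both drivers, 6.49 in G85R flies and 6.79 in dSOD1 flies with MN, and 6.64 in G85R flies and 5.64 in dSOD1 flies with glia. In these 3 genes the MN flies with dSOD1 had levels near those of G85R flies. se was of the same kind, with 7.11 in G85R flies and 7.13 in dSOD1 flies under the MN driver and 7.23 in G85R flies and 5.77 in dSOD1 flies under the glia driver.

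CG31809 fell further under both drivers together than under either alone. With the MN driver it averaged 8.14 in G85R flies and 8.36 in dSOD1 flies, and with the glia driver 8.24 in G85R flies and 8.18 in dSOD1 flies, neither difference passing the threshold (adjusted p = 0.163 and 0.834). The difference with both drivers was more negative (-2.80 against MN and -3.07 against glia; SE 0.13 each, adjusted p = 1.3e-15 and 1.9e-16). With both drivers at 5d it averaged 4.66 in G85R flies and 7.25 in dSOD1 flies. The fall of NimC1 was also deeper with both drivers than with MN (-1.13, adjusted p = 0.00013) and than with glia (-1.50, adjusted p = 2.2e-06). whe differed from both, its rise larger by 2.10 than in MN flies (14.16 in G85R flies and 11.17 in dSOD1 flies) and by 1.30 than in glia flies (14.07 in G85R flies and 10.27 in dSOD1 flies). CG16826, which rose by 6.04 here, rose by 4.57 in MN flies and by 6.18 in glia flies, and its excess over glia was -0.13 (SE 0.13).

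**Figure D5:**
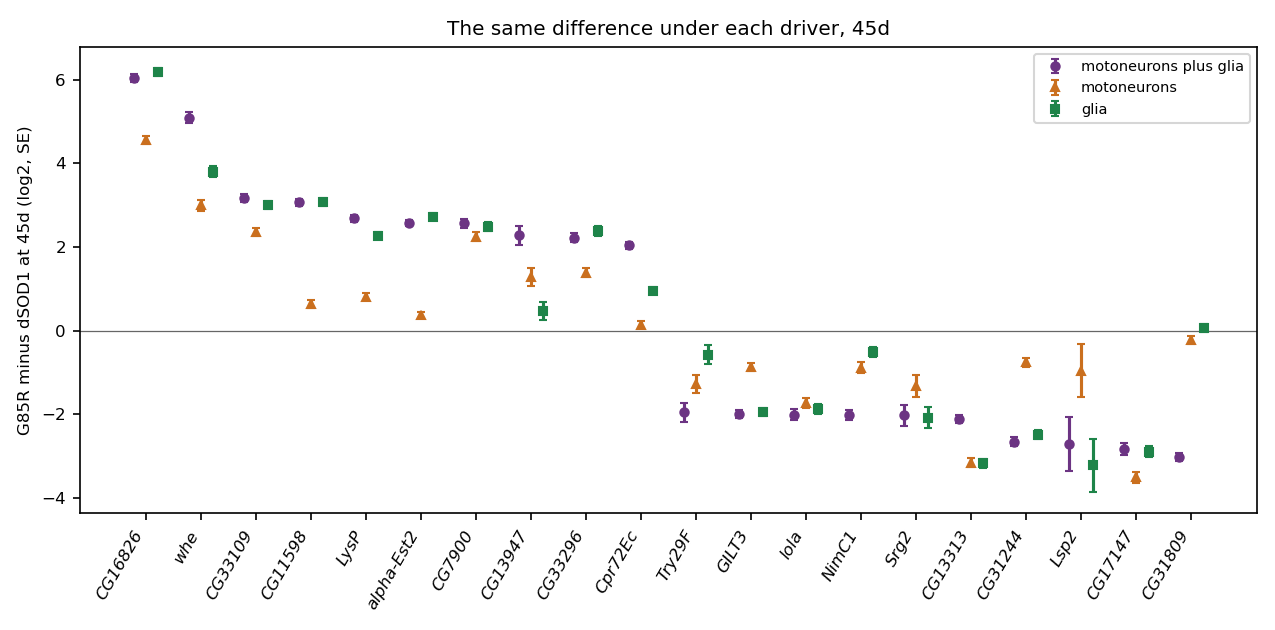
Difference between G85R and dSOD1 flies at 45d (log2, with SE) under both drivers (purple circles), the motoneuron driver (orange triangles) and the glial driver (green squares) for the 10 largest rises and 10 largest falls under both drivers. CG11598, LysP and alpha-Est2 differ in MN flies by less than 1 log2 unit, and CG31809 lies near 0 under either driver alone.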

How the data were processed

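RNA from pools of 40 whole males was hybridised to Affymetrix Drosophila Genome arrays, 36 in all. Per the study's methods, the authors summarised the arrays to log2 values with RMA in the Robin software and deposited these values; the submitters' processing notes name RMA and limma. Whether all arrays were normalized together is not given in the sources used here. RMA corrects background, equalises array distributions and summarises probes, which can compress low values. Groups follow the labels. The array holds 18952 probe sets, and 183 of them, controls, were set aside; the values were used as given. Of the rest 13647 carry 1 gene symbol in the platform annotation, 402 several and 4720 none.

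With R 4.3.3 and limma 3.58.1, 1 mean per group was fitted to 36 arrays (24 residual and 5.77 prior degrees of freedom), and p values were adjusted by Benjamini-Hochberg over 18769 probe sets, threshold 0.05. Besides G85R against dSOD1, 3 differences of differences were tested: 45d against 5d, and MN+glia against MN and against glia. The model was checked on simulated data. Precision is limited by 3 arrays per group, replicates being separate pools of flies by the study's methods. Named genes are, among probe sets with 1 symbol, the 10 largest non-overlapping rises and falls, 3 each way in each difference of differences, up to 2 each way per list, defining tissue markers, and genes the study names; members of a list beyond these were chosen after their values were seen. Members and lists were chosen with earlier results of these data known. Lists take the probe set of highest mean per gene, and 134 list entries had no probe set with 1 symbol. Gene order comes from RefSeq. Alternatives were array weights, a trended and robust eBayes step, a replicate block, renewed normalization (quantile or cyclic loess), removal of dim probe sets, a fit on only the arrays compared, 1 probe set per gene, a threshold of 0.01 and leaving out each array. Some genes of the study are not reported here.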

Additional observations from a re-analysis of the deposited data

Results flagged for a closer look

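The difference between G85R and dSOD1 flies was not the same at both ages, or under all drivers, for 724 probe sets (45d against 5d), 255 (MN+glia against MN) and 85 (MN+glia against glia), each by the test of the difference itself. Against 5d, the genes with the largest changes were CG16826 (6.05), whe (5.08) and CG33109 (3.25) upward, and Lsp2 (-3.23), MtnB (-2.67) and pirk (-2.14), an inhibitor of the Imd pathway, downward. pirk averaged 8.16 in G85R flies and 6.25 in dSOD1 flies at 5d, and its change was -1.66 without the degraded array. The Lsp2 change (adjusted p = 0.0386) was lost without any one of the arrays compared except dSOD1 replicate 2 of the 45d flies and G85R replicates 1 and 3 of the 5d flies, with adjusted p values of 0.0562 to 0.176, and was -2.17 without the degraded array.

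Against MN flies, CG11598 (2.43), alpha-Est2 (2.20) and whe (2.10) had the larger rises, and CG31809 (-2.80), AttD (-2.37) and CG31041 (-2.33) the more negative differences. CG31041 averaged 10.06 in G85R flies and 7.38 in dSOD1 flies of the MN driver, against 7.14, 7.43 and 7.53 on G85R arrays and 6.97, 7.09 and 7.01 on dSOD1 arrays of both drivers. The call of AttD, an antimicrobial peptide gene, was lost without MN G85R replicate 2, MN dSOD1 replicate 2, MN+glia G85R replicate 1 or 2, or MN+glia dSOD1 replicate 3 (adjusted p 0.0916 to 0.124).

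Against glia flies, CG15263 (2.33), CG13947 (1.81) and the lipase gene Lip3 (1.56) were more positive, and CG31809 (-3.07), Jon99Fi (-2.89), a digestive protease, and MtnB (-2.17) more negative. CG15263 averaged 9.97 in G85R flies and 10.51 in dSOD1 flies of the glia driver. The Lip3 call was lost without MN+glia dSOD1 replicate 2 (adjusted p = 0.0506) or glia dSOD1 replicate 3 (0.0509), and that of MtnB without MN+glia G85R replicate 3, MN+glia dSOD1 replicates 1 or 3, glia G85R replicates 1 or 2, or glia dSOD1 replicate 3 (adjusted p 0.0516 to 0.0751).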

How the results depend on the processing

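Counts of probe sets at least 2-fold higher or lower stayed within 1.5 times 37 and 45 in every alternative run. Array weights gave 948 higher, and 738 and 278 probe sets unlike MN and unlike glia. At a threshold of 0.01 there were 335 higher, 437 lower, 173 that differed from 5d, 136 unlike MN and 54 unlike glia. The comparison with 5d gave 1183 probe sets with dim ones left out and 79 with only the 12 arrays compared. With 1 array left out, counts ran from 394 to 702 (higher), 479 to 938 (lower), 34 to 38 and 42 to 50 (2-fold higher and lower), 274 to 1931 (against 5d), 177 to 348 (unlike MN) and 59 to 125 (unlike glia). The upper ends of 702, 938, 348 and 125 and the lower end of 274 came without the degraded array. Same-numbered G85R and dSOD1 arrays had correlations of -0.149, -0.033 and -0.234 in their deviations from the group means. Pairs of unlike number ran from -0.136 to 0.254. With 3 arrays per group these values are tied to one another and cannot show whether same-numbered arrays share more than a number. With the replicate number as a block the counts were 562, 763, 35, 45, 717, 237 and 85, of which 548, 731, 35, 45, 672, 233 and 80 were called without it. Of 129 differences of named probe sets 85 kept their call in every setting, as did 61 of 93 differences of differences, and 0 changed sign. The cause of these changes was not tested.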
